A study of Rattus norvegicus with 10 samples.

Results

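Nqo1, Srxn1, Txnrd1, Prdx1, Gclc, Gclm, Gsr, Osgin1 and Pir are genes that the transcription factor NRF2 is known to induce. They are grouped here under quinone and thiol reduction, but not all encode such enzymes. Gclc and Gclm encode a ligase of glutathione synthesis, Pir an iron-binding nuclear protein and Osgin1 a growth inhibitor. The 9 genes were chosen by name, with earlier results of these data known. Shares of all probe sets given below are therefore a background and not independent evidence. All 9 were measured, of 14506 genes that the array annotation names with a single symbol. Where a gene had more than 1 probe set, the one with the highest mean over the 10 arrays was used. The arrays held kidney RNA from male weanling Wistar rats killed after 6 days on 1 of 4 diets, each array from 1 pool of 3 animals. Control vegetable oil kidneys came from rats given choline with corn and hydrogenated oils, and control fish oil kidneys from rats given choline with menhaden oil. Deficient fish oil kidneys came from the menhaden diet without choline. Kidneys of the vegetable oil diet without choline are divided by the labels into pools called necrotic, here the necrotic kidneys, and pools without that word, here the deficient vegetable oil kidneys. Each of the 5 groups had 2 arrays, and the labels do not say how kidneys were assigned to the necrotic pools. The spread is therefore that between pools, with precision limited by the few arrays. Several comparisons below share groups and so are not independent of each other.

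NRF2 is held in the cytosol and marked for degradation by KEAP1, a protein whose cysteines react with electrophiles and oxidants. When these cysteines are modified, NRF2 accumulates, pairs with small MAF proteins and binds antioxidant response elements in the promoters and enhancers of its targets. The targets include a quinone reductase, the enzymes that make and recycle glutathione, and the thioredoxin and peroxiredoxin system. In the kidney these enzymes are known for protecting tubule cells, which handle oxidised lipids and electrophilic compounds. Fish oil is rich in highly unsaturated fatty acids, which oxidise readily.

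Values are log2 intensities per probe set after RMA, so a difference of 1 is a 2-fold change. They cannot be set against each other between genes, because probe sets differ in brightness for equal amounts of RNA. Array medians lay between 7.28 and 7.43. The arrays carried the kidney's defining transcripts: the 12 proximal tubule genes averaged between 11.20 and 13.23 on every array, and the 10 genes of the thick ascending limb and collecting duct between 10.21 and 11.53. Probe sets that differed 2-fold or more between the arrays of a group numbered from 166 in the control vegetable oil to 488 in the deficient vegetable oil kidneys. Replicate 2 of the deficient vegetable oil kidneys had the lower proximal tubule mean of that pair, 12.74 against 12.99, and the higher tubular injury mean, 12.19 against 11.69. Differences are given ± the moderated standard error from a limma fit of all 5 groups. Rose and fell refer to a Benjamini-Hochberg adjusted p under 0.05 over all 29214 probe sets.

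Fish oil went with higher values of most of these genes whether or not choline was given. For 6 of the 9 genes, Nqo1, Txnrd1, Gclm, Gsr, Osgin1 and Pir, every one of the 4 fish oil arrays lay above every one of the 6 vegetable oil arrays, which 2.41% of all probe sets did. For Srxn1 the necrotic arrays reached the fish oil range, for Prdx1 a deficient vegetable oil array did, and Gclc was level in every group except the necrotic kidneys. The genes differed in how choline deficiency and necrosis moved them under vegetable oil. Nqo1, Srxn1 and Txnrd1 rose in the necrotic kidneys, while Gclc, Gclm and Osgin1 fell there.

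**Figure D1:**
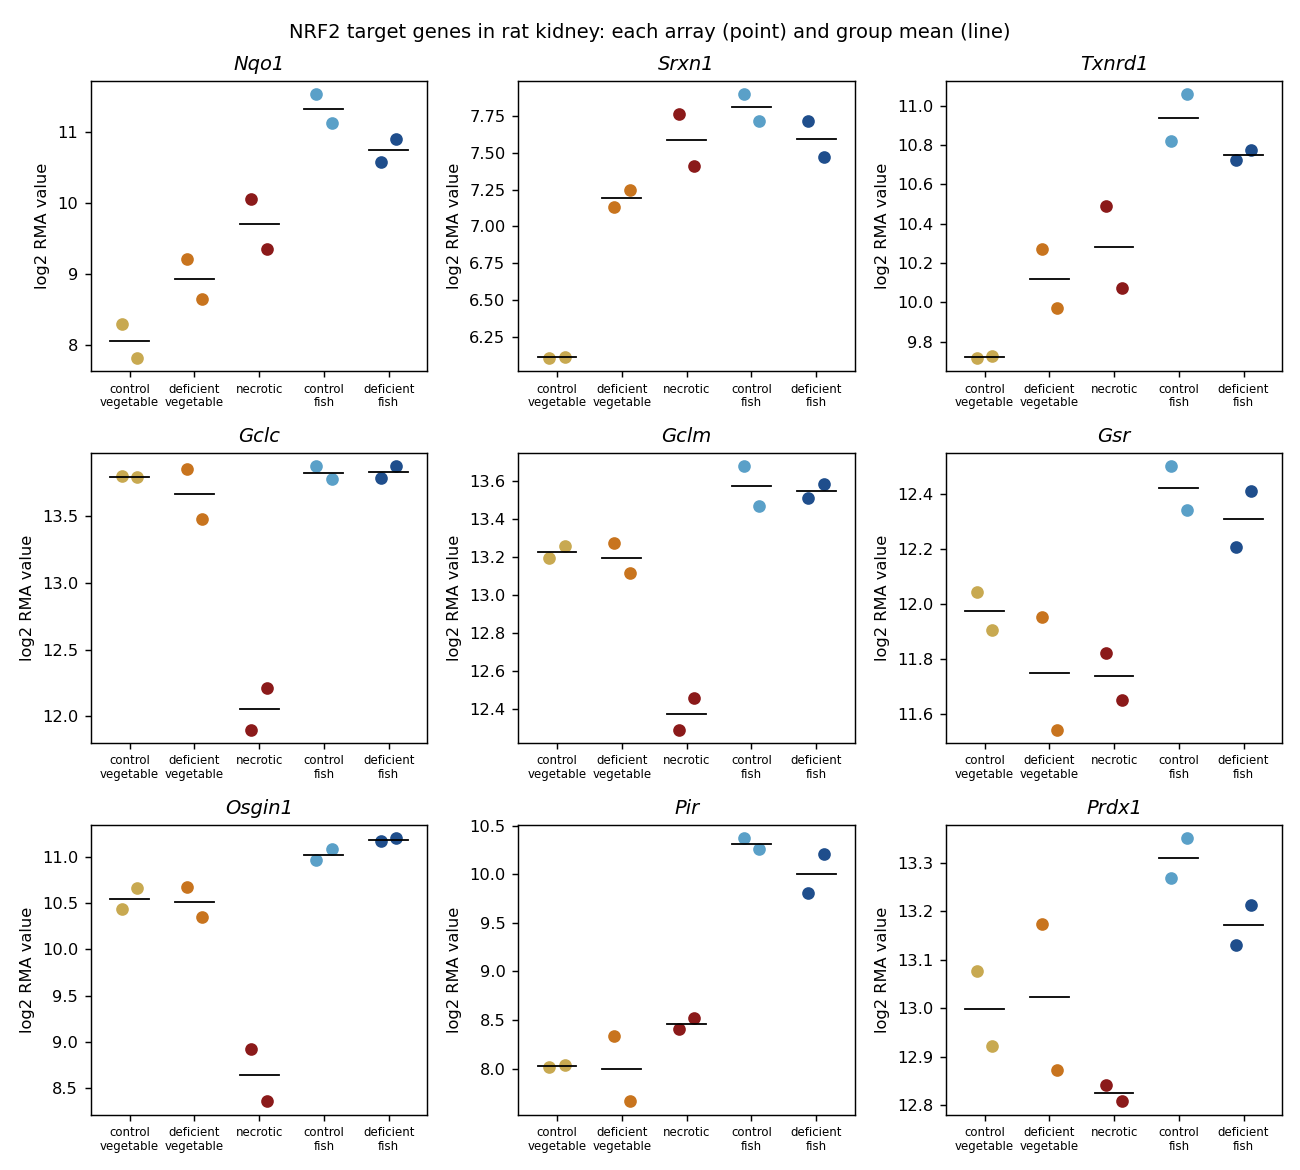
Log2 RMA value (vertical axis, a separate scale for each gene) of the 9 genes by diet group; each point is 1 array holding a pool of 3 animals and each line the mean of 2 arrays. Nqo1 lies between 7.82 and 8.29 in the control vegetable oil and between 11.12 and 11.53 in the control fish oil kidneys, while Gclc and Osgin1 stand low only in the necrotic kidneys.

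The first comparison asked what fish oil did where choline was supplied. Of the 9 genes 4 rose, Nqo1, Srxn1, Txnrd1 and Pir, and none fell, where 0.0856% of all probe sets rose and 0.0993% fell. The median difference of the 9 was 0.48, against 0.03 over all probe sets.

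Nqo1 encodes the quinone reductase that uses NADPH or NADH to reduce quinones straight to hydroquinones. It read 8.29 and 7.82 on the control vegetable oil arrays and 11.53 and 11.12 on the control fish oil arrays. The groups were far apart, and the rise was 3.26 ± 0.29, or 9.60-fold (adjusted p = 0.00918). Only 1 of the 29214 probe sets had a larger rise in this comparison.

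In the thioredoxin branch the reductases rose and the peroxidase did not pass the test. Srxn1, sulfiredoxin, which restores overoxidised peroxiredoxins, read 6.11 and 6.12 under vegetable oil and 7.90 and 7.72 under fish oil, a rise of 1.69 ± 0.15 (adjusted p = 0.00918). Txnrd1, the cytosolic selenoenzyme that reduces thioredoxin, read 9.72 and 9.73 against 10.82 and 11.06, a rise of 1.22 ± 0.17 (adjusted p = 0.0414). The vegetable oil arrays of both genes were nearly the same, and the gaps between the diets were several times the spread within either group. Prdx1, a peroxiredoxin that removes hydrogen peroxide, read 13.08 and 12.92 against 13.27 and 13.35, a difference of 0.31 ± 0.13 (adjusted p = 0.388). Its arrays did not overlap, and the 95% interval of the difference ran from 0.01 to 0.61. A second probe set annotated to Prdx1 differed by 0.33 ± 0.14 (adjusted p = 0.383).

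Pir encodes pirin, an iron-binding nuclear protein. It read 8.02 and 8.04 on the control vegetable oil arrays and 10.38 and 10.26 on the control fish oil arrays. This rise of 2.29 ± 0.22, or 4.89-fold (adjusted p = 0.00955), was the next largest of the set after Nqo1. Osgin1, an oxidative stress induced growth inhibitor, read 10.43 and 10.66 against 10.96 and 11.08. Its difference of 0.48 ± 0.19 did not pass (adjusted p = 0.376), although the arrays did not overlap.

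None of the glutathione genes passed in this comparison. Gclc, the catalytic subunit of glutamate-cysteine ligase, the rate-limiting enzyme of glutathione synthesis, read 13.80 and 13.79 against 13.87 and 13.77. Its arrays overlapped, and the difference of 0.03 ± 0.16 had an interval from -0.33 to 0.38. Gclm, the modifier subunit of the same ligase, read 13.20 and 13.26 against 13.68 and 13.47, a difference of 0.35 ± 0.13 (adjusted p = 0.333). Gsr, glutathione reductase, which returns oxidised glutathione to its reduced form, read 12.04 and 11.91 against 12.50 and 12.34, a difference of 0.45 ± 0.16 (adjusted p = 0.328). Without overlap between the groups, Gclm and Gsr were higher under fish oil on all arrays, as were 8 of the 9 genes against 28.7% of all probe sets.

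The calls of Nqo1, Srxn1 and Pir ended without any 1 of the 4 compared arrays: without control vegetable oil replicate 1 or 2, or control fish oil replicate 1 or 2, Nqo1 had differences between 3.03 and 3.50 and adjusted p between 0.0557 and 0.0968, Srxn1 between 1.60 and 1.78 (0.0557 to 0.0968) and Pir between 2.23 and 2.35 (0.0804 to 0.11). Txnrd1 also lost its call without deficient fish oil replicate 1 or 2 (adjusted p = 0.0805 for each; 0.145 to 0.31 without a compared array), and with only the compared groups fitted Nqo1, Srxn1 and Txnrd1 had adjusted p = 0.0559, 0.0595 and 0.0676.

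**Figure D2:**
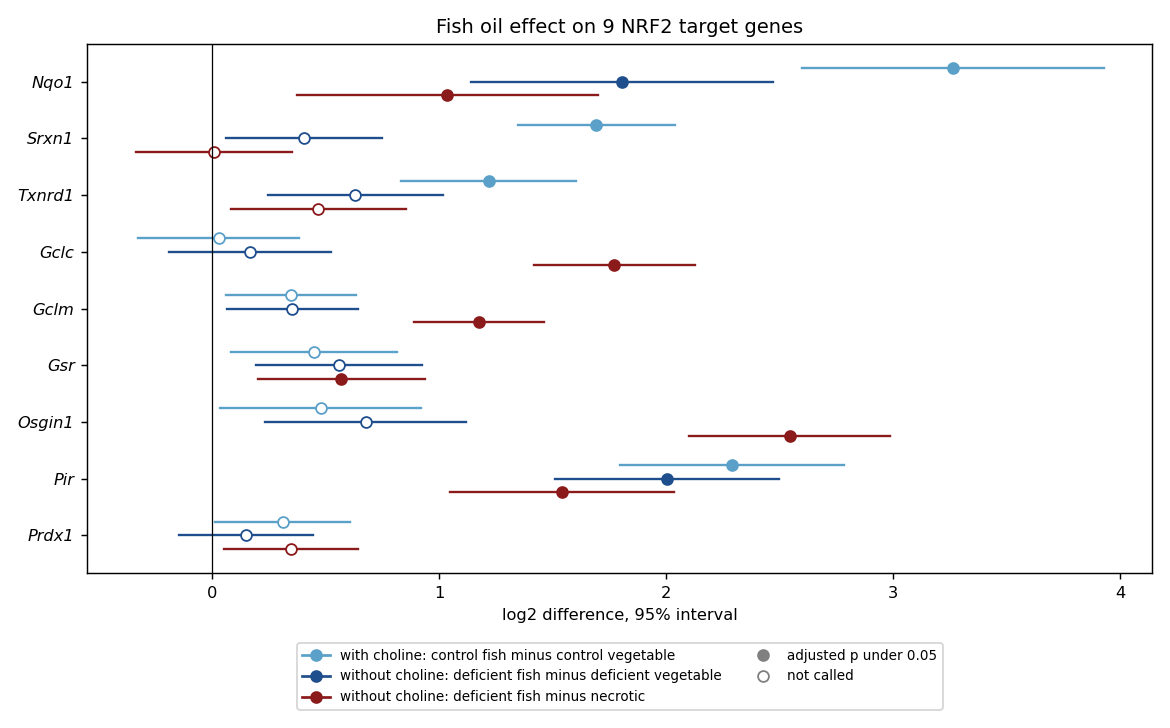
Fish oil effect on each gene as a log2 difference (horizontal axis) with its unadjusted 95% interval: with choline, and without choline against the deficient vegetable oil or the necrotic kidneys; filled points passed an adjusted p under 0.05. Nqo1 stands at 3.26 with choline and at 1.81 and 1.04 without, Pir between 1.54 and 2.29, and Gclc between 0.03 and 1.77. The groups compared with the necrotic kidneys differ in necrosis as well as oil.

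Promoter sequences of the set were searched for the core of the antioxidant response element. RefSeq windows on GRCr8, running from 250 bases before to 50 after the start site, were found for 8 of the 9 genes, 9 windows in all, with 2 for Txnrd1. The motifs TGACNNNGC and TGAGNNNGC were searched on both strands; they cannot match at the same place of 1 strand. Among all 33469 promoter windows of this length 12.1% hold the first, 17.2% the second and 27.1% either. Of the 9 windows of the set 5 hold a match, from Srxn1, Txnrd1, Prdx1, Gclm and Pir. The other Txnrd1 window and those of Nqo1, Gclc and Osgin1 hold none. The stretches shown here run from position -200 to position 20, 5′ to 3′ along the gene, with matches in capitals. They cover the 4 genes that rose with fish oil when choline was given, and Prdx1 and Gclm, which did not pass but hold a match. The windows of Gclc and Osgin1 and the other Txnrd1 window are not shown. A match on the opposite strand reads as its reverse complement here.
Nqo1, chr19:52220248-52220467, minus strand: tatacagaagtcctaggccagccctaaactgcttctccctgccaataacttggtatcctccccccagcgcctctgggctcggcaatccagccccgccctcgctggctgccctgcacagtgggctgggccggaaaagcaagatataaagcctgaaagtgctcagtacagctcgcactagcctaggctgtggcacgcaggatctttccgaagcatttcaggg
Srxn1, chr3:161064612-161064831, plus strand: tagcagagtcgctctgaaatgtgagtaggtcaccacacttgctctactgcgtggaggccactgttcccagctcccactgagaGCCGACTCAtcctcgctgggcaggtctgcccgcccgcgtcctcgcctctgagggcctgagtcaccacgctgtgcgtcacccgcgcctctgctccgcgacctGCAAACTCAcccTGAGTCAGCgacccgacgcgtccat
Txnrd1, chr7:22755885-22756104, minus strand: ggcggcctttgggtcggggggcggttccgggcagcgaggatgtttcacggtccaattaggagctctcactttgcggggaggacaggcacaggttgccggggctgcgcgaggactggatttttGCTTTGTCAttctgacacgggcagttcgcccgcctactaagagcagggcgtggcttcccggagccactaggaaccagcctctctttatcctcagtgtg
Pir, chrX:33851030-33851249, minus strand: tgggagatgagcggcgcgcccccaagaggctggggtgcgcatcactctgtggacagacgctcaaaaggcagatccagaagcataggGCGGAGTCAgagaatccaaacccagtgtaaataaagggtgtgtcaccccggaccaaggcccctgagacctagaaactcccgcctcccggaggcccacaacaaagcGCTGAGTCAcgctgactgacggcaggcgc
Prdx1, chr5:135383706-135383925, plus strand: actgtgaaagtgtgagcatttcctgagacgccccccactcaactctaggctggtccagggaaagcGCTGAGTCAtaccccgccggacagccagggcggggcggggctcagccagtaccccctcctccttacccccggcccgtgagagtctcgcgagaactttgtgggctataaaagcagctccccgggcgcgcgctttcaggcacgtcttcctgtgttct
Gclm, chr2:213031935-213032154, plus strand: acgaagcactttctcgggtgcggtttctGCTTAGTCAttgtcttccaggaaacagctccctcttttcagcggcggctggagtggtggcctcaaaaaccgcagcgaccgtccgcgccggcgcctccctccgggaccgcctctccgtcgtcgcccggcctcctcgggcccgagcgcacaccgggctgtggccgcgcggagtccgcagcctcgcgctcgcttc
Srxn1 has 3 matches, the forward TGAGTCAGC at positions -5 to 4 and reverse matches TGAGTTTGC at -17 to -9 and TGAGTCGGC at -118 to -110, counted from the start site as 1 with no 0. Pir has 2 reverse matches, TGACTCAGC at -9 to -1 and TGACTCCGC at -114 to -106. Prdx1 also holds a reverse TGACTCAGC, at -135 to -127, and did not pass the test with choline, whereas the Nqo1 window has no match and Nqo1 rose most. The reverse matches of Gclm and Txnrd1 are TGACTAAGC at -172 to -164 and TGACAAAGC at -78 to -70. These are letters found in short windows. Sequence beyond the windows was not searched, so a window without a match does not show that a gene lacks the element. Binding was not measured.

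The next comparison asked for the fish oil effect without choline, setting the deficient fish oil against the deficient vegetable oil kidneys. Nqo1 and Pir rose and none of the 9 fell, where 0.346% of all probe sets rose and 1.39% fell. The median difference of the 9 was 0.56, against 0.01 over all probe sets, and 7 of the 9 had arrays that did not overlap, against 21.2% of all probe sets.

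Nqo1 read 9.21 and 8.65 on the deficient vegetable oil arrays and 10.57 and 10.90 on the deficient fish oil arrays, a rise of 1.81 ± 0.29 (adjusted p = 0.0221). Pir read 8.34 and 7.66 against 9.81 and 10.21, a rise of 2.00 ± 0.22 (adjusted p = 0.00395). Both genes were well apart between the oils, and Pir had the 5th largest rise of all probe sets in this comparison. Srxn1 read 7.13 and 7.25 against 7.72 and 7.47, and its difference of 0.40 ± 0.15 did not pass (adjusted p = 0.304). Txnrd1 read 10.27 and 9.97 against 10.73 and 10.77, a difference of 0.63 ± 0.17 (adjusted p = 0.136). Neither gene had overlapping arrays here.

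The glutathione genes and Osgin1 did not pass here either. Osgin1, at 10.67 and 10.35 against 11.17 and 11.20, had 0.68 ± 0.19 (adjusted p = 0.162). Gsr, at 11.95 and 11.54 against 12.21 and 12.41, had 0.56 ± 0.16 (adjusted p = 0.163). Gclm differed by 0.35 ± 0.13, close to its 0.35 with choline, and its interval ran from 0.07 to 0.64. Gclc and Prdx1 had overlapping arrays and differences of 0.17 ± 0.16 and 0.15 ± 0.13. The call of Nqo1 ended without deficient vegetable oil replicate 2 (1.52, adjusted p = 0.133) and without deficient fish oil replicate 1 or 2 (1.97 and 1.64, adjusted p = 0.0859 and 0.163). With only the compared groups fitted, Nqo1 and Pir had adjusted p = 0.105 and 0.106.

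Cell markers also differed in this comparison. Of 8 tubular injury markers 6 were lower under fish oil (array means of 10.05 to 10.64 against 11.69 to 12.19), and of 9 measured macrophage markers 7 were lower (8.14 to 8.27 against 9.05 to 9.45). Of 8 neutrophil markers 2 were lower, and of 10 markers of the thick ascending limb and collecting duct 2 were higher. None of the 12 proximal tubule markers passed. The part of these markers in the values of the 9 genes was not tested, and in whole kidney RNA fewer cells of a type and less RNA per cell cannot be told apart.

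The difference between the fish oil effects without and with choline was tested directly as an interaction. None of the 9 genes passed in limma with the deficient vegetable oil kidneys as reference, where 0.103% of all probe sets did; 3 of the 9 and 2892 of all probe sets had an unadjusted p under 0.05. Srxn1 came nearest, at -1.29 ± 0.21 (adjusted p = 0.093). Nqo1 had -1.46 ± 0.41 (adjusted p = 0.351; interval -2.40 to -0.52) and Txnrd1 -0.59 ± 0.24 (adjusted p = 0.48). Pir, by contrast, had -0.28 ± 0.31 with an interval from -0.98 to 0.41. For Gclc, Gclm, Gsr, Osgin1 and Prdx1 the estimates lay between -0.16 and 0.20.

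For choline deficiency under vegetable oil, outside the necrotic pools, 1 of the 9 genes passed. Srxn1 rose by 1.08 ± 0.15 (adjusted p = 0.0161), from 6.11 and 6.12 to 7.13 and 7.25, where 0.893% of all probe sets rose; none of the 9 fell, where 0.236% fell. In the same comparison 6 of 8 tubular injury and 2 of 9 macrophage markers rose, and their part was not tested. Nqo1 was higher on both arrays, at 0.87 ± 0.29, but did not pass (adjusted p = 0.226), and Txnrd1 differed by 0.40 ± 0.17 (adjusted p = 0.316). The other 6 genes had overlapping arrays and differences between -0.23 and 0.02. The call of Srxn1 ended without deficient vegetable oil replicate 2 (1.02, adjusted p = 0.102), without control vegetable oil replicate 1 or 2 (1.07 and 1.08, adjusted p = 0.137 and 0.15), and with only these groups fitted (adjusted p = 0.0536).

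The necrotic kidneys split the set. Against the control vegetable oil kidneys 3 genes rose, where 10.2% of all probe sets rose, and 3 fell, where 10.7% fell. Nqo1 read 10.05 and 9.35 against 8.29 and 7.82, a rise of 1.64 ± 0.29 (adjusted p = 0.00486). Srxn1, at 7.76 and 7.41 against 6.11 and 6.12, rose by 1.47 ± 0.15 (adjusted p = 0.000369). Txnrd1, at 10.49 and 10.07 against 9.72 and 9.73, rose by 0.56 ± 0.17 (adjusted p = 0.0469). Necrotic and control arrays did not overlap for any of the 9 genes, with 4 higher and 5 lower. The share of all probe sets without overlap is not given for this comparison.

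Both subunits of glutamate-cysteine ligase and Osgin1 went the other way. Gclc read 11.90 and 12.21 on the necrotic arrays against 13.80 and 13.79, a fall of 1.74 on the log2 scale (-1.74 ± 0.16, adjusted p = 0.0002). Gclm, at 12.29 and 12.46 against 13.20 and 13.26, had -0.85 ± 0.13 (adjusted p = 0.00202). Osgin1, at 8.92 and 8.36 against 10.43 and 10.66, had -1.90 ± 0.19 (adjusted p = 0.000354). These 3 genes were lower on the necrotic arrays than on any other array of the series. So was Prdx1, at 12.84 and 12.81 against 12.87 on the lowest other array. The share of all probe sets with this pattern is not given. Pir (0.43 ± 0.22), Gsr (-0.24 ± 0.16) and Prdx1 (-0.17 ± 0.13) did not pass. Txnrd1 lost its call after each array was centred on its median (0.45, adjusted p = 0.11), with only the compared groups fitted (adjusted p = 0.0816), without necrotic replicate 1 (0.35, adjusted p = 0.247), without control vegetable oil replicate 1 or 2 (0.166 and 0.171) and without any 1 of the 4 fish oil arrays (0.0543 to 0.0717).

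**Figure D3:**
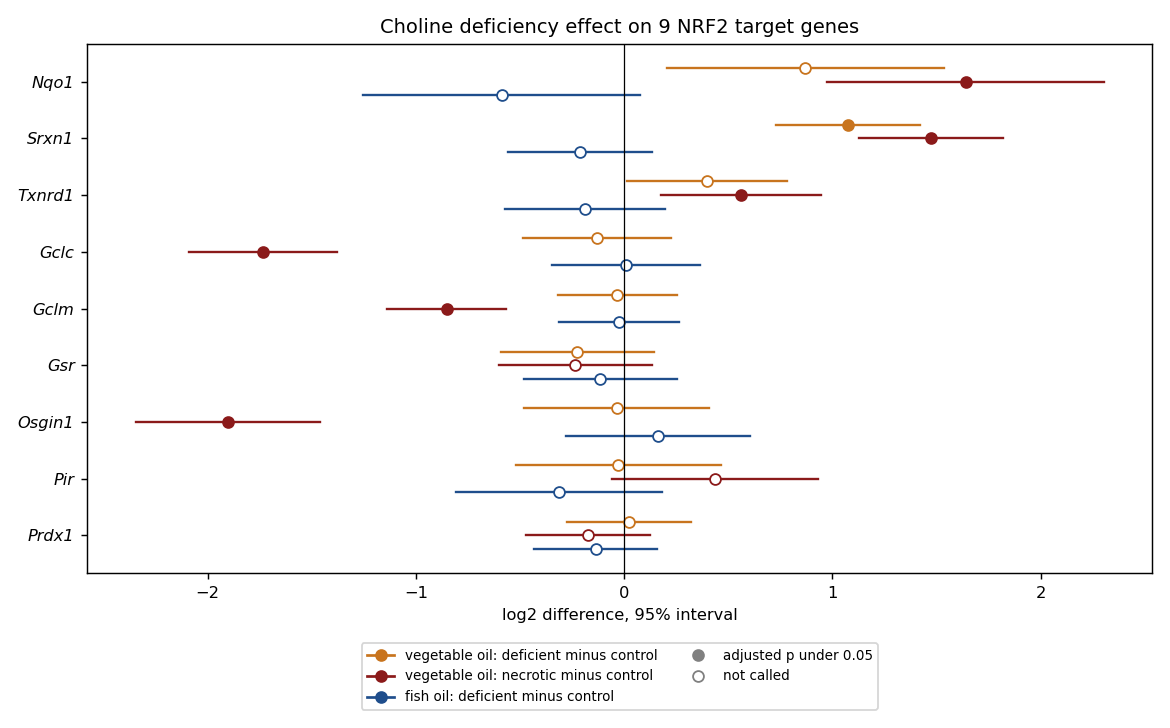
Effect of choline deficiency on each gene as a log2 difference (horizontal axis) with its unadjusted 95% interval, under vegetable oil in pools not called necrotic, in necrotic pools, and under fish oil; filled points passed an adjusted p under 0.05. Gclc, Gclm and Osgin1 lie between -1.90 and -0.85 in the necrotic pools, Nqo1 and Srxn1 at 1.64 and 1.47, and no fish oil point is filled.

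Within the choline-deficient vegetable oil diet, the necrotic pools again had lower Gclc (-1.60 ± 0.16, adjusted p = 0.00076), Gclm (-0.82 ± 0.13, adjusted p = 0.00574) and Osgin1 (-1.87 ± 0.19, adjusted p = 0.000986) than the others, where 5.08% of all probe sets fell. None of the 9 rose, where 4.71% of all probe sets rose. Nqo1 (0.77 ± 0.29), Srxn1 (0.40 ± 0.15), Txnrd1 (0.16 ± 0.17) and Pir (0.46 ± 0.22) had positive differences that did not pass, and the Txnrd1 arrays overlapped. The call of Gclm ended with only these groups fitted (adjusted p = 0.0641). Of the markers, 10 of 12 for the proximal tubule were lower in the necrotic pools. So were 6 of 10 for the thick ascending limb and collecting duct, with 1 higher, and 2 of 6 for endothelium, with 1 higher. Of the podocyte markers 1 of 5 measured was lower, and of the hepatocyte genes 1 of 6. Markers of tubular injury (3 of 8), macrophages (5 of 9, with 1 lower) and neutrophils (5 of 8) were higher. The part of these markers was not tested.

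Other cell markers moved with these falls and rises. In the necrotic kidneys 10 of 12 proximal tubule markers fell, with array means of 11.20 to 11.45 against 13.20 to 13.23 in the control vegetable oil kidneys. Markers of other kidney cells fell as well, 7 of 10 for the thick ascending limb and collecting duct (median -1.20), 3 of 6 for endothelium and 2 of 5 measured for podocytes, as did 3 of 6 hepatocyte genes. All 8 tubular injury markers rose (12.68 to 12.70 against 10.02 to 10.05). Of 9 measured macrophage markers 8 rose (10.29 to 10.33 against 8.40 to 8.50), and of 8 neutrophil markers 6 rose (7.02 to 7.64 against 5.94 to 6.04). Their part in the values of the 9 genes was not tested. Between the control diets no gene of the 8 marker lists passed in either direction. Over all probe sets 0.0856% rose and 0.0993% fell there, so no calls in lists this short is what those shares would give. The proximal tubule means there were 13.07 to 13.12 under fish oil against 13.20 to 13.23, and the macrophage means 8.15 to 8.24 against 8.40 to 8.50. The hepatocyte genes had the largest median difference of the 8 lists, -0.83, with means of 7.82 to 8.52 against 8.78 to 9.37.

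Set against the necrotic kidneys, the deficient fish oil kidneys had 6 of the 9 genes higher, where 9.25% of all probe sets were higher, and none lower, where 10.5% were. These groups differ in both oil and necrosis, whose parts cannot be told apart. Osgin1 (2.54 ± 0.19, adjusted p = 9.46e-05), Gclc (1.77 ± 0.16, adjusted p = 0.000167) and Gclm (1.17 ± 0.13, adjusted p = 0.000404) were higher, the genes that had fallen in the necrotic kidneys. Pir was 1.54 ± 0.22 higher (adjusted p = 0.00148), Nqo1 1.04 ± 0.29 (adjusted p = 0.0376) and Gsr 0.57 ± 0.16 (adjusted p = 0.0381). Srxn1 was at 7.72 and 7.47 under fish oil and at 7.76 and 7.41 in the necrotic kidneys, a difference of 0.01 ± 0.15 with an interval from -0.34 to 0.35. In this comparison 10 of 12 proximal tubule markers and 7 of 10 markers of the thick ascending limb and collecting duct (median 1.04) were higher under fish oil. All 8 tubular injury markers (median -1.73), 8 of 9 macrophage markers and 5 of 8 neutrophil markers were lower, and the part of these markers was not tested. The call of Nqo1 ended without necrotic replicate 2 (0.69, adjusted p = 0.198), without deficient fish oil replicate 1 or 2 (1.20 and 0.87, adjusted p = 0.078 and 0.185) and with only the compared groups fitted (adjusted p = 0.0586). The call of Gsr ended without any 1 array other than the deficient vegetable oil arrays (0.47 to 0.67, adjusted p = 0.0503 to 0.201) and with only the compared groups fitted (adjusted p = 0.055).

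With the necrotic kidneys as reference, the fish oil effects without and with choline differed for 5 of the 9 genes. Of these, 3 had a larger effect without choline, where 4.9% of all probe sets had one, and 2 a smaller one, where 3.82% did. The necrotic pools differ from the deficient fish oil pools in both oil and necrosis, whose parts cannot be told apart here. The larger ones were Osgin1 (2.07 ± 0.27, adjusted p = 0.00363), Gclc (1.74 ± 0.22, adjusted p = 0.00295) and Gclm (0.83 ± 0.18, adjusted p = 0.0243). In that order, these genes differed by -1.90, -1.74 and -0.85 between necrotic and control vegetable oil kidneys. Between deficient and control fish oil kidneys they differed by 0.16, 0.01 and -0.03. The smaller ones were Nqo1 (-2.23 ± 0.41, adjusted p = 0.014) and Srxn1 (-1.68 ± 0.21, adjusted p = 0.00304). Nqo1 lost its call without control vegetable oil replicate 2 (-1.99, adjusted p = 0.0624) or deficient fish oil replicate 1 (-2.06, adjusted p = 0.0537). Gclm lost it without necrotic replicate 1, either control vegetable oil array, either deficient fish oil array or control fish oil replicate 2 (0.72 to 0.87, adjusted p = 0.0704 to 0.103). In the same interaction 10 of 12 proximal tubule markers (median 1.58) and 6 of 10 markers of the thick ascending limb and collecting duct had a larger effect without choline. All 8 tubular injury markers, 7 of 9 macrophage markers and 5 of 8 neutrophil markers had a smaller one, and the part of these markers was not tested.

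Under fish oil, none of the 9 genes passed for choline deficiency. Of their differences 7 were negative and 2 positive. In limma 0 of the 29214 probe sets passed, 0% of the total, and 1036 had an unadjusted p under 0.05, none of them among the 9. Nqo1 had the largest difference, -0.59 ± 0.29, with an interval from -1.25 to 0.08 and the deficient arrays below the control arrays. Pir had -0.31 ± 0.22, Srxn1 -0.21 ± 0.15 and Txnrd1 -0.19 ± 0.17. Txnrd1, Pir and Prdx1 also had deficient arrays below the control arrays, and Osgin1 had them above. The share of all probe sets without overlap is not given here. Tubular injury means were 10.05 to 10.64 in the deficient against 9.87 to 9.98 in the control fish oil kidneys. Macrophage means were 8.14 to 8.27 against 8.15 to 8.24, and the part of these markers was not tested. Gclc and Gclm, the subunits that were low in the necrotic kidneys, differed by 0.01 ± 0.16 (interval -0.35 to 0.36) and -0.03 ± 0.13 (interval -0.31 to 0.26).

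The order of the 5 groups differed between genes. Nqo1 ran from control vegetable oil (mean 8.06) through deficient vegetable oil (8.93), necrotic (9.70) and deficient fish oil (10.73) to control fish oil (11.32), and no neighbours overlapped. Txnrd1 had the same order, with overlap only between the deficient vegetable oil and necrotic arrays. Srxn1 also had it, and its necrotic, deficient fish oil and control fish oil arrays overlapped as neighbours. For Gclc, Gclm and Osgin1 the necrotic kidneys came first (12.06, 12.37 and 8.64), followed by the deficient vegetable oil arrays, which overlapped the control vegetable oil arrays. Gsr began with the necrotic and deficient vegetable oil kidneys, whose arrays overlapped, as did its fish oil arrays with each other. Pir began with overlapping deficient and control vegetable oil arrays, followed by the necrotic (8.46) and fish oil kidneys. Prdx1 ran from 12.82 in the necrotic to 13.31 in the control fish oil kidneys, the narrowest spread of means in the set.

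Across the 10 arrays the genes kept company in the same way. The Pearson correlation was 0.97 between Nqo1 and Txnrd1, 0.93 between Nqo1 and Pir and 0.86 between Nqo1 and Srxn1. It was 0.95 between Gclc and Gclm and 0.96 between Gclm and Osgin1, but 0.07 between Nqo1 and Gclc and -0.27 between Srxn1 and Gclc. Gsr and Prdx1 had r of 0.89 and 0.78 with Pir and of 0.75 and 0.82 with Gclm, but 0.31 and 0.28 with Srxn1. Of the 36 pairs 11 had r above 0.8 and 2 had r below 0. The arrays share diet groups, so these values describe the pattern of group means and are not independent evidence.

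**Figure D4:**
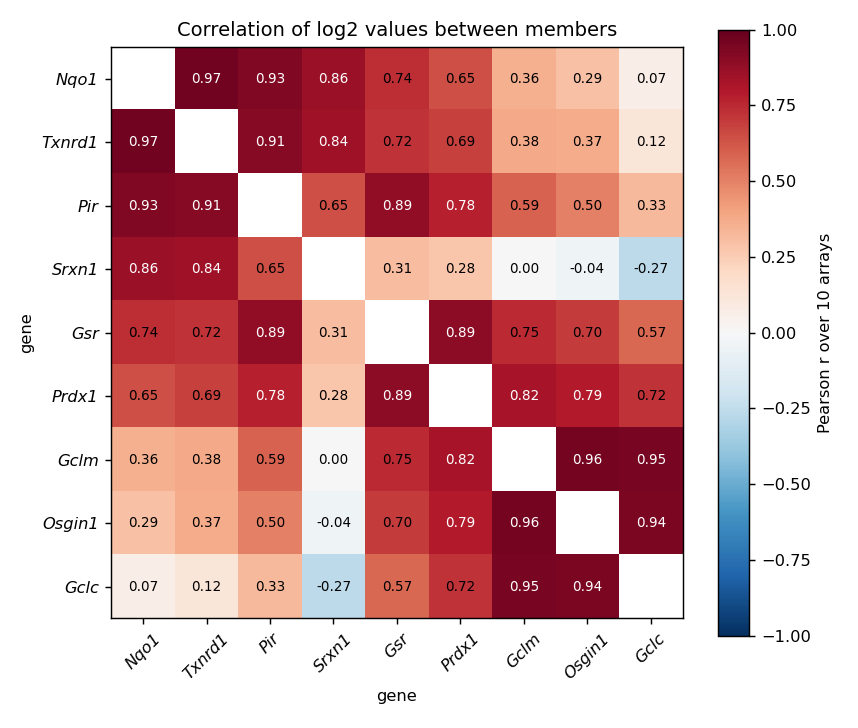
Pearson correlation of log2 values over the 10 arrays for each pair of the 9 genes, in colour from -1 to 1 and as a number. Nqo1, Txnrd1, Pir and Srxn1 form a block with r from 0.65 to 0.97, and Gclm, Osgin1 and Gclc another with r from 0.94 to 0.96. Gsr and Prdx1 go with genes of both blocks, at 0.89 and 0.78 with Pir and 0.75 and 0.82 with Gclm, but 0.31 and 0.28 with Srxn1.

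By the same measure over 10 arrays, the 5 genes outside the set most like Nqo1 were Gstp1 (r = 0.97), Reg3a (0.97), Tmem120a (0.96), Slc25a34 (0.94) and Cldn17 (0.93). Reg3a read only 4.63 to 5.10 over the 10 arrays, below the lowest array median of 7.28, so its r rests on small differences at a low signal. Gstp1, a glutathione transferase, rose by 1.75 with choline and by 1.13 without it. Cldn17, a claudin of tight junctions, rose by 1.58 and 1.33, while Reg3a, Tmem120a and Slc25a34 had smaller differences under fish oil that did not pass in those comparisons. Most like the mean of the 9 genes, each centred on its own mean, were Por (0.99), Abcc4 (0.98), Csmd1 (0.98), Creb3l3 (0.98) and Htatip2 (0.98). Por, the cytochrome P450 reductase, differed by 0.58 with choline and 0.47 without it and did not pass in these comparisons. Csmd1 rose by 2.78 and 2.37, Creb3l3, a membrane-bound transcription factor, by 2.05 and 1.63, and Abcc4, an export pump, by 1.43 and 1.20.

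The wider NRF2 pathway was described by 6 further lists. With choline, fish oil raised 3 of 14 measured genes for conjugation, carbonyl reduction and export (median 0.93), 1 of 11 for glutathione supply and peroxidases (median 0.09), and none of the 9 NRF2 regulators, 9 thioredoxin and peroxiredoxin genes, 4 NADPH supply genes or 7 heme and iron genes, whose medians were 0.20, 0.09, 0.29 and 0.07. No gene of these lists fell. Over all probe sets 0.0856% rose and 0.0993% fell, with a median of 0.03, so a count of 0 in a list of 4 to 9 genes is what that share would give. Without choline, fish oil raised 4 of the 14 conjugation and export genes against the deficient vegetable oil kidneys, where 0.346% of all probe sets rose. None of the other lists had a gene that rose, which that share would also give for lists of 4 to 11 genes.

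Abcc2, an export pump for conjugates, read 9.78 and 9.94 under vegetable oil with choline and 12.24 and 12.37 under fish oil, a rise of 2.44 ± 0.14 (adjusted p = 0.000594). It rose by 1.56 ± 0.14 without choline (adjusted p = 0.00194). Gpx2, a glutathione peroxidase, was the glutathione gene that rose with choline, at 11.29 and 10.92 against 12.30 and 12.36 (1.22 ± 0.15, adjusted p = 0.0273). Gpx2 also rose in the deficient vegetable oil (1.32 ± 0.15, adjusted p = 0.0064) and necrotic kidneys (1.50 ± 0.15, adjusted p = 0.000328), and its control vegetable oil arrays lay below all other arrays, as those of Srxn1 did. Among the regulators Bach1, a repressor that competes with NRF2, differed by 0.88 ± 0.15 with choline (adjusted p = 0.0796). Keap1, which holds NRF2 back, differed by 0.21 ± 0.13 (adjusted p = 0.503).

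In the necrotic kidneys genes of these lists moved in both directions, against the control vegetable oil kidneys, where 10.2% of all probe sets rose and 10.7% fell. In this comparison 4 of the 14 conjugation and export genes rose and 5 fell, 3 of the 11 glutathione genes rose and 4 fell, and 2 of the 9 thioredoxin genes rose and 3 fell. Of the 4 NADPH supply genes 2 fell and none rose, of the 9 regulators 3 rose and none fell, and of the 7 heme and iron genes 1 rose and 2 fell. In lists this short a count of 1 gene is near the share of all probe sets, and counts of 2 or 3 rest on few genes. The list medians lay between -0.38 and 0.26, against 0.06 over all probe sets. Slc7a11, the cystine carrier that supplies glutathione synthesis, rose by 3.87 ± 0.40 (adjusted p = 0.000359), while Gss, glutathione synthetase, at -1.16 ± 0.20, and Ggct, of glutathione breakdown, at -1.64 ± 0.12, fell as Gclc and Gclm did. Among the thioredoxin genes of the mitochondria, the reductase Txnrd2 (-0.52 ± 0.11, adjusted p = 0.0102), the thioredoxin Txn2 (-0.64 ± 0.12) and the peroxiredoxin Prdx3 (-0.86 ± 0.14) fell. Prdx4, a peroxiredoxin of the same list, rose by 0.73 ± 0.22 (adjusted p = 0.0474). Nqo2, a quinone reductase related to Nqo1, read 10.05 and 9.89 on the necrotic arrays against 12.43 and 12.57 on the control vegetable oil arrays. It fell by 2.53 on the log2 scale (-2.53 ± 0.25, adjusted p = 0.000287), opposite to Nqo1, and differed by -0.09 ± 0.25 under fish oil with choline. Aldh1a1, a retinal dehydrogenase (-2.14 ± 0.17), and Me1 and Idh1, which supply NADPH (-0.93 ± 0.18 and -0.86 ± 0.19), fell as well, whereas Hmox1, heme oxygenase, rose by 4.69 ± 0.47 and the small MAF genes Maff and Mafk by 0.73 ± 0.19 and 0.44 ± 0.13.

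**Figure D5:**
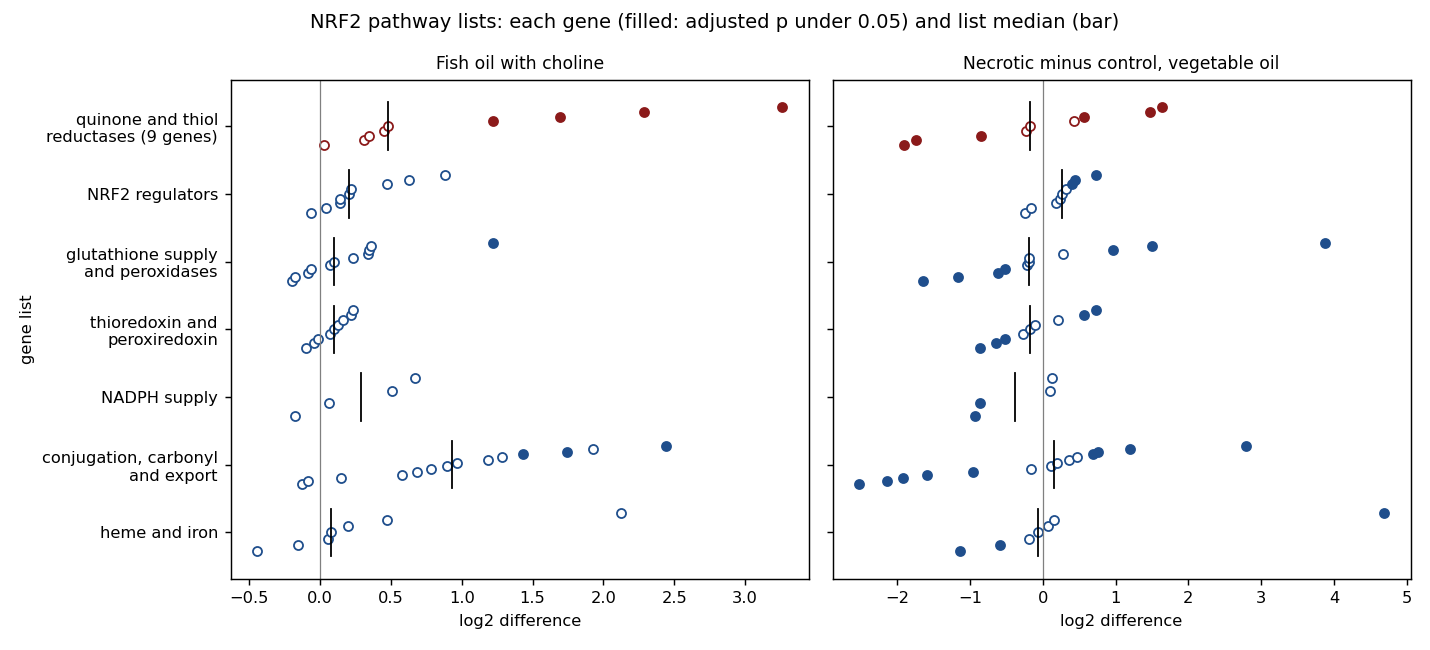
Log2 difference (horizontal axis) of each gene of the set (red) and of 6 NRF2 pathway lists (blue), for control fish oil minus control vegetable oil kidneys (left) and for necrotic minus control vegetable oil kidneys (right); filled points passed an adjusted p under 0.05 and bars are medians. On the left all 8 filled points lie above 0, between 1.22 and 3.26; on the right filled points lie on both sides.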

How the data were processed

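Kidney RNA from 10 pools of rats was hybridised to 10 arrays, 2 in each of 5 groups taken from the sample labels. The authors summarised the arrays by RMA, per the submitters' processing notes, and deposited the result on a log2 scale; no label names the software or how probes were combined into sets. The values were used as deposited. RMA evens out the distributions of the arrays, so a shift common to most genes would not be seen. Of 29214 probe sets 15310 have 1 gene symbol, and the RefSeq gene table (GRCr8) changed 0 of these symbols. Array files name no genome build, so promoter coordinates belong to RefSeq only.

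A single limma 3.58.1 model covered the 5 groups (R 4.3.3; 5 residual and 3.59 prior degrees of freedom) with 9 contrasts and Benjamini-Hochberg adjustment within each. The fit was tested on simulated data. Tables used Python 3.11.15 and pandas 2.3.3. Members, lists and contrasts were chosen with earlier results of these data known. Named outside the 9 genes are, per list, up to 4 with the largest differences among those called in a fish oil or necrotic contrast, and the 5 most correlated with Nqo1 or with the mean of the set. Alternatives were median centring, cyclic loess, a filter at the 50th percentile, a trend and robust prior, fitting only the compared groups, the replicate number as a block, the other Prdx1 probe set, and leaving out each array.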

Additional observations from a re-analysis of the deposited data

Results flagged for a closer look

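For 5 genes the fish oil effect without choline, taken against the necrotic kidneys, differed from the effect with choline by the interaction term. The differences were 2.07 for Osgin1, 1.74 for Gclc and 0.83 for Gclm, whose effect was larger without choline, and -2.23 for Nqo1 and -1.68 for Srxn1, whose effect was smaller. With the deficient vegetable oil kidneys as reference none of the 5 passed, and the values were 0.20, 0.14, 0.01, -1.46 and -1.29 in that order. The necrotic reference brings in necrosis as well as oil, and their parts cannot be told apart. Markers shifted in the interaction with the necrotic kidneys too: the effect was larger without choline for 10 of 12 proximal tubule markers (median 1.58) and smaller for all 8 tubular injury and 7 of 9 macrophage markers, and their part was not tested.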

How the results depend on the processing

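No single-gene difference that passed changed its sign under any alternative, and the 33 sign changes all concerned values that passed in neither fit. With only the compared groups fitted, the number of the 9 genes that passed was 1 for fish oil with choline (4 with all groups), 0 for fish oil without choline (2) and 0 for deficiency under vegetable oil (1); fewer arrays then estimate the spread. With the filter at the 50th percentile it was 0 for deficiency under vegetable oil, because Srxn1 lies below that level and was not tested. Leaving out each array in turn gave 0 to 4 genes for fish oil with choline, 1 to 2 without choline, 4 to 6 against the necrotic kidneys, 0 to 1 for deficiency under vegetable oil, 5 to 6 for the necrotic kidneys against control, 3 against the other deficient kidneys, 0 for deficiency under fish oil, 0 for the interaction and 3 to 6 for the interaction with the necrotic kidneys. The replicate number as a block ended the calls of Txnrd1 with fish oil and choline (adjusted p = 0.0735) and in the necrotic kidneys (adjusted p = 0.0595), giving 3 and 5 genes, and changed no other call. Same-numbered arrays of different groups had deviations correlated between -0.17 and 0.14 over all probe sets. The numbers thus show no pairing across all probe sets, but a pairing limited to some genes could be missed. Txnrd1 passed against the necrotic kidneys with the filter (adjusted p = 0.0475) and without necrotic replicate 1 (0.0384), and Prdx1 did with the filter (0.0475) and a trend and robust prior (0.042). Txnrd1 also passed in the interaction with the necrotic kidneys with the filter (adjusted p = 0.0471) and without necrotic replicate 2 (-0.96, adjusted p = 0.0491). Median centring moved the median of all probe sets in the necrotic comparison from 0.06 to -0.04, and its split of calls from 2985 higher and 3113 lower to 2123 and 3739; against deficient fish oil it moved the median from -0.01 to 0.10 and the split from 2701 and 3062 to 3483 and 2282, and in the interaction with the necrotic kidneys from -0.08 to 0.04, with a split of 1431 and 1117 moving to 1670 and 818.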

Other observations

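A few pathway genes had arrays far apart within a fish oil group. Akr1b8, an aldo-keto reductase, read 10.56 and 8.61 on the deficient fish oil arrays and 10.87 and 9.03 on the control fish oil arrays, replicate 1 before replicate 2. It read 7.76 and 8.30 on the control vegetable oil arrays and rose in the necrotic kidneys, to 10.80 and 10.85 (2.79 ± 0.66, adjusted p = 0.0185). Hmox1 read 9.63 and 8.34 in the deficient and 8.47 and 9.64 in the control fish oil kidneys, against 6.93 on both control vegetable oil arrays, and its difference of 2.13 ± 0.47 with choline did not pass (adjusted p = 0.152). Slc7a11 read 6.82 and 5.30 in the deficient fish oil kidneys, against 5.54 and 5.38 in the control fish oil kidneys.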
